A study of Saccharomyces cerevisiae with 59 samples.

Results

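Glycolysis is among the most heavily transcribed pathways of budding yeast, and 10 of its genes were followed here through 2 cell cycles in chromatin and in RNA. They were chosen by gene name: FBA1, TPI1, TDH1, TDH2, TDH3, PGK1, GPM1, ENO1, ENO2 and CDC19, which encode the enzymes that convert fructose-1,6-bisphosphate to pyruvate. All 10 were found among the 5590 genes for which entropy, nucleosome score, promoter subnucleosome score and RNA were tabulated. The cells were Saccharomyces cerevisiae of the W303 background, all of 1 MATa strain that carried BAR1::TRP and URA3::BrdU-Inc with the alleles ade2-1, can1-100, his3-11,15 and leu2-3, 112. They were grown in YPD, a medium that contains glucose, and held in G1 for 2 h with the mating pheromone α-factor at 50 ng/mL (0 min). For release they were washed in water and moved to fresh YPD. They were then sampled every 10 min, up to 140 min on the aligned time scale used here. MNase-seq, in which micrococcal nuclease leaves the DNA fragments covered by nucleosomes or smaller factors, gave 30 libraries, and total RNA-seq gave 29. Each of the 15 time points had 2 replicates of each assay, except 110 min, for which 1 RNA library was listed. Each table held 1 column per time point, in which the authors had merged the replicates where there were 2. No standard deviation, replicate test or interval could therefore be given for any value below, and every difference is a description of these values.

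Yeast growing on sugar breaks glucose down to pyruvate by glycolysis and reduces most of it to ethanol by fermentation. Aldolase (FBA1) splits fructose-1,6-bisphosphate into a pair of triose phosphates, and triosephosphate isomerase (TPI1) interconverts them. Glyceraldehyde-3-phosphate dehydrogenase (TDH1, TDH2, TDH3), phosphoglycerate kinase (PGK1), phosphoglycerate mutase (GPM1), enolase (ENO1, ENO2) and pyruvate kinase (CDC19) then carry the carbon to pyruvate. In S. cerevisiae the promoters of these genes are bound by Rap1 and activated through Gcr1 and Gcr2. In a gene with well placed nucleosomes the MNase signal is concentrated at few positions, whereas passage of RNA polymerase or of a replication fork disturbs the array. Shannon entropy of the nucleosome signal measures this: it is low when the signal sits at few positions and high when it is spread evenly.

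The RNA values placed 9 of the 10 genes above the 90th percentile (10.0% of all genes by construction), and TDH1 below it, so that the name of highly expressed genes holds for 9 of them. The values are on the authors' TPM scale, which corrects for gene length and for the total of a sample, so that genes can be set side by side. Of the upper enzymes, FBA1 (YKL060C, chrXI:326408-327487, minus strand, coding coordinates of the R64 build here and below) ranged from a lowest value of 7862 over a median of 9610 to a highest value of 11414 TPM over the time points. TPI1 (YDR050C, chrIV:555726-556472, minus strand) had a lowest value of 2257, a median of 3175 and a highest value of 4005 TPM. FBA1 thus ranked 7 and TPI1 49 by median among the 5590 genes.

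The dehydrogenase genes spanned the widest range of RNA levels. TDH3 (YGR192C, chrVII:882812-883810, minus strand) had a lowest value of 9198, a median of 12295 and a highest value of 15780 TPM, rank 4 of all genes. TDH2 (YJR009C, chrX:453683-454681, minus strand) had a lowest value of 1504, a median of 2047 and a highest value of 3500 TPM, rank 80. TDH1 (YJL052W, chrX:338271-339269, plus strand) had a lowest value of 63, a median of 119.5 and a highest value of 1310 TPM, rank 1141. TDH3 supplied between 79.6% and 85.1% of the summed RNA of the 3 dehydrogenase genes at all time points, and was followed by TDH2 and then TDH1 at each of them.

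The lower enzymes ranked high as well, except ENO1. PGK1 (YCR012W, chrIII:137746-138996, plus strand) had a lowest value of 3044, a median of 4996 and a highest value of 7578 TPM. GPM1 (YKL152C, chrXI:163642-164385, minus strand) had a lowest value of 5555, a median of 6792 and a highest value of 10811 TPM. Both were among the 33 genes with the highest median RNA. ENO2 (YHR174W, chrVIII:451327-452640, plus strand), the enolase that is prominent during growth on glucose, had a lowest value of 5193, a median of 7383 and a highest value of 9467 TPM. ENO1 (YGR254W, chrVII:1000927-1002240, plus strand) had a lowest value of 367.4, a median of 633.6 and a highest value of 2654 TPM, rank 259. CDC19 (YAL038W, chrI:71786-73288, plus strand) had a lowest value of 5423, a median of 6925 and a highest value of 8199 TPM. Together the 10 genes took between 3.91% (70 min) and 7.36% (0 min) of the summed RNA values of all genes, with a median over the time points of 5.53%. The highest value was at least 2-fold above the lowest in 4 of 10 (TDH1, ENO1, PGK1 and TDH2), against 35.8% of all genes.

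**Figure D1:**
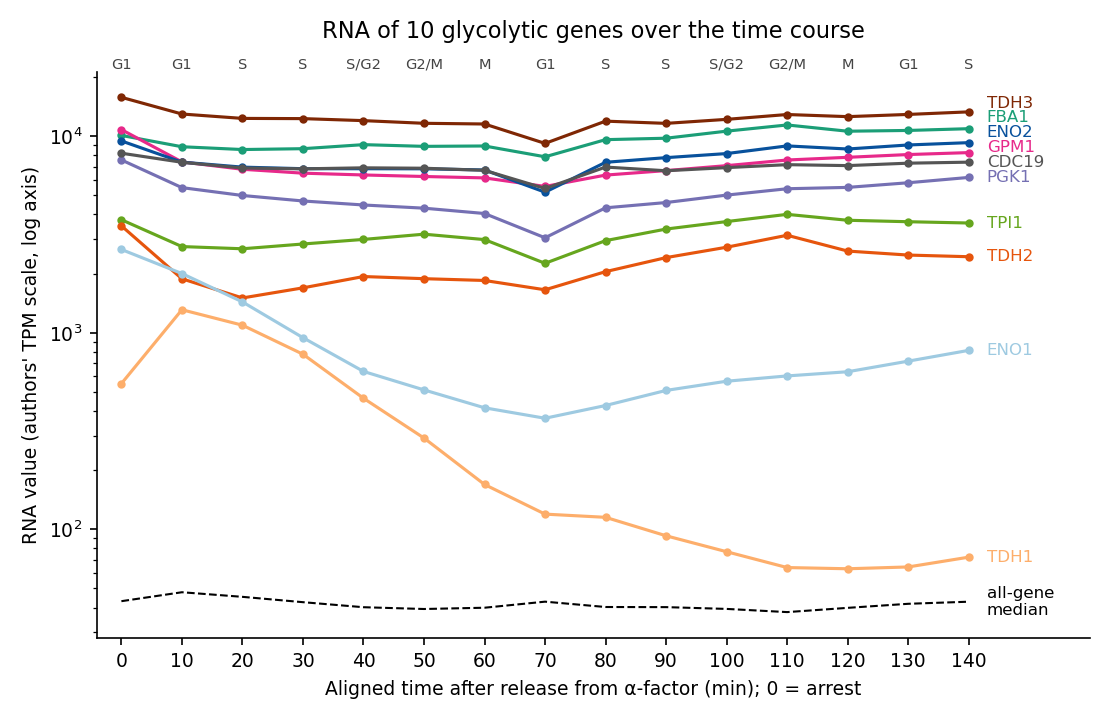
RNA values of the 10 glycolytic genes and of the median gene (dashed) by aligned time, on a log axis. One point is the authors' value for a time point, the phase is written above, and the lines of TDH1 and ENO1 fall away from the others: TDH1 was at 1310 TPM at 10 min and 63 TPM at 120 min, and ENO1 at 2654 TPM at 0 min and 367.4 TPM at 70 min.

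RNA of the glycolytic genes was higher in the α-factor arrest than after release. Release was also a move to fresh glucose medium, so that the pheromone and the medium cannot be told apart here. The samples were whole cultures, in which a change in every cell and one in some of the cells cannot be told apart. All 10 were above their own median over the 14 released time points, against 53.0% of all genes, and the median difference was 0.51 on the log2(TPM + 1) scale for the 10 genes and 0.04 for all genes. Without the TDH and ENO genes it was 0.29. The arrest value was the highest of the time course for 7 of the 10, whereas 32.8% of all genes had their highest value there. The difference was at least 2-fold for TDH1 and ENO1 only, or 2 of 10 against 11.3% of all genes. Most genes of the comparison sets lay on the other side: only 13.0% of the 100 genes with the highest mean RNA outside the 10 and 1.47% of 136 ribosomal protein genes were higher in the arrest than the released median. These sets overlap here and below, because ribosomal protein genes such as RPL32 and RPS9B are among the 100. Heavily transcribed genes other than ribosomal protein genes were not separated for the arrest. The ribosomal protein genes took 25.3% of the RNA sum at 0 min and up to 39.4% at 70 min. Values of a column share its total, and the part of this in the glycolytic values was not tested. With every time point scaled to its upper quartile, 9 of the 10 remained above the released median and 4 of the 10 were highest at 0 min, against 31.3% of all genes.

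Single genes differed in how far they stood above the released level. GPM1 had 10811 TPM in the arrest and a released median of 6740 TPM, a difference of 0.68 on the log2 scale. TDH2 had 3500 TPM in the arrest and a released median of 1990 TPM, and PGK1 had 7578 TPM in the arrest and a released median of 4840 TPM. These 3 genes showed the largest differences after TDH1 and ENO1. FBA1 was at the low end, with 10098 TPM in the arrest and a released median of 9337 TPM, and it reached higher values again from 100 min on.

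At 70 min, when the cells entered the second G1, most glycolytic RNAs had a low value. The value at 70 min was the lowest of the time course in 8 of 10 genes, against 7.69% of all genes, 6 of the 100 other genes of highest RNA and none of the 136 ribosomal protein genes. TDH3 had 9198 TPM at 70 min, below 11545 TPM at 60 min and 11936 TPM at 80 min. PGK1 had 3044 TPM at 70 min, below 4045 TPM at 60 min and 4324 TPM at 80 min. ENO2 had 5193 TPM at 70 min, below 6738 TPM at 60 min and 7371 TPM at 80 min. TDH1 had 169.1, 119.5 and 115.1 TPM at 60, 70 and 80 min, a continued decline rather than a dip. In all 10, TDH1 included, the value at 70 min lay below the mean of 60 and 80 min on the log2 scale, against 26.4% of all genes, with a median difference of -0.29 for the 10 and 0.10 for all genes. TDH1 and TDH2 were the 2 genes with a lower value elsewhere. After upper quartile scaling 7 of the 10 were lowest at 70 min, against 10.8% of all genes.

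TDH1 and ENO1 followed a course of their own on top of this. TDH1, which in S. cerevisiae is linked to slow growth and stress rather than to rapid growth on glucose, had 551.4 TPM at 0 min, its highest value of 1310 TPM at 10 min, 464.4 TPM at 40 min and 119.5 TPM at 70 min. It stayed between 63 and 115.1 TPM from 80 min on, and its highest value was 20.8-fold above its lowest. Its share of the dehydrogenase RNA was 8.1% at 10 min and 0.4% at 110 min. ENO1 declined at every step between 0 and 70 min and recovered to 813.9 TPM at 140 min. Its share of the enolase RNA was 21.9% at 0 min and 5.47% at 80 min. Between 70 and 130 min the mean log2 RNA of TDH1 was 2.71 below that between 0 and 60 min, lower than in nearly all genes (percentile 0.02), and that of ENO1 was 0.90 lower (percentile 1.65). The same difference was between -0.09 and 0.29 in the other 8 genes. TDH1 did not regain its first-cycle level. Changes with the cycle, with time since release and with the move to fresh medium cannot be told apart.

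A list of 20 other genes of sugar breakdown, fermentation, gluconeogenesis and their regulation was examined beside the 10. Among the abundant ones, PDC1, the main pyruvate decarboxylase, had its highest value of 14183 TPM at 0 min and its lowest of 9656 TPM at 70 min. ADH1, the alcohol dehydrogenase that forms ethanol, had its highest value of 6631 TPM at 0 min and its lowest of 3240 TPM at 70 min. PFK1 and PFK2, the subunits of phosphofructokinase, were 0.08 and 0.01 below the released median in the arrest on the log2 scale. The less expressed hexokinase HXK1, the glucokinase GLK1 and the second pyruvate kinase PYK2 stood high in the arrest, as ENO1 did. HXK1 had 300.2 TPM in the arrest and a released median of 52.1 TPM. GLK1 had 342 TPM in the arrest and a released median of 61.5 TPM, and PYK2 139.9 TPM in the arrest and a released median of 24.7 TPM. Of the 20 genes, 15 were higher in the arrest than the released median, 5 of them at least 2-fold, and 8 had their lowest value at 70 min. RAP1, whose product binds the glycolytic promoters, was lower in the arrest, with 23.7 TPM and a released median of 58.4 TPM. GCR1, which encodes the main activator, had 41.1 TPM in the arrest and a released median of 39.8 TPM.

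The genes most like the 10 in their RNA course were named by the Pearson correlation of log2(TPM + 1) with the mean z-score of the 10 over the 15 time points. They were IMP2' (YIL154C, r = 0.97), ADH1 (r = 0.97), RPN10 (r = 0.96), VMA13 (r = 0.95) and TAF9 (r = 0.94) out of 5577 genes compared. All 5 had their highest value at 0 min and their lowest at 70 min. Successive time points share cultures and the scaling of a column, so that r is a description only. Of the 10 genes themselves, PGK1 followed the mean most closely (r = 0.99) and TDH1 did not follow it (r = 0.01).

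RNA differed little between S phase and the rest of the cycle for most of the 10 genes. S phase was taken as 20 and 30 min in the first cycle, compared with G1, G2/M and M at 0, 10, 50 and 60 min, and as 80 and 90 min in the second cycle, compared with 70, 110, 120 and 130 min. The S phase mean was above the other mean in 2 of 10 genes in the first cycle (56.3% of all genes) and in 2 of 10 in the second (49.9% of all genes). The median differences were -0.10 and -0.07 on the log2 scale in the first and the second cycle. TDH2 had a first-cycle difference of -0.46. TDH1 was the exception in the first cycle with a difference of 1.08 and values of 1093 and 778 TPM at 20 and 30 min, and was the 1 gene of 10 past 2-fold, as were 1.81% of all genes. In the second cycle none of the 10 passed 2-fold, as did 0.233% of all genes.

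Before the chromatin values are given, the sequence that some of the 10 genes share has to be considered, because the authors kept uniquely mapped fragments. TDH2 and TDH3 are 95.8% identical over their 999 coding bases, TDH1 and TDH2 90.2%, TDH1 and TDH3 88.9%, and ENO1 and ENO2 94.8% over 1314 coding bases. The first 90 coding bases of the R64 reference (strain S288C, not the W303 strain used) are printed to show how far the copies can be told apart near the start of the gene. Capitals mark bases that differ from TDH3 in the TDH genes and from ENO2 in ENO1. The stretches are chrVII:883721-883810 (minus strand) for TDH3, chrX:454592-454681 (minus) for TDH2, chrX:338271-338360 (plus) for TDH1, chrVIII:451327-451416 (plus) for ENO2 and chrVII:1000927-1001016 (plus) for ENO1.
TDH3: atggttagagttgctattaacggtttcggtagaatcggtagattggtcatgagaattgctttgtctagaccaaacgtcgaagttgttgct
TDH2: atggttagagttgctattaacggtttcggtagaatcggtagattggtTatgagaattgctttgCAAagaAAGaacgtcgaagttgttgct
TDH1: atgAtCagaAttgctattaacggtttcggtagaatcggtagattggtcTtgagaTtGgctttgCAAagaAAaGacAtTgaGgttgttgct
ENO2: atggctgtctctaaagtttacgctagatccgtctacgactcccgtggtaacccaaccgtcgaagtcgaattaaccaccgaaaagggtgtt
ENO1: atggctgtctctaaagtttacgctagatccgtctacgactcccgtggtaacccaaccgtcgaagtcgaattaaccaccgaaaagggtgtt
TDH2 differs from TDH3 at 7 of these bases, TDH1 at 15, and ENO1 from ENO2 at none. Every 150-base fragment centred in the first 500 bases after the transcription start of each gene, read as 25 bases from each end, was searched for in the genome. Another exact placement existed for 18.6% of fragments of TDH2, 15.2% of TDH3, 6.4% of TDH1 and 5.8% each of ENO1 and ENO2. With up to 2 mismatches per end, the shares were 47.2% for TDH2, 50.2% for TDH3, 15.6% for TDH1, 24.6% for ENO1 and 24.8% for ENO2. For FBA1, TPI1, PGK1, GPM1 and CDC19 they were 0%. The chromatin values of the TDH and ENO genes are therefore uncertain, and the S phase summaries of entropy are also given for the 5 genes without near-identical copies. RNA reads could likewise be divided between copies in a way that the sources used here do not describe.

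Most of the 10 gene bodies combined a low nucleosome score with a high entropy, whereas TDH1, TDH2 and TDH3 had a lower entropy than the rest. The nucleosome score deposited for a gene body rises as fragments pile up like those of a well placed nucleosome. Its median over time was below that of the median gene in all 10 (50.0% of all genes by construction). CDC19 had a lowest value of 0.0193, a median of 0.0232 and a highest value of 0.0271 (percentile 2.74). TDH3 had a lowest value of 0.0219, a median of 0.0253 and a highest value of 0.0332 (percentile 3.99). The genes other than TDH1 lay between percentiles 2.74 and 22.3. TDH1, the gene with the least RNA of the 10, had the highest nucleosome score among them, with a lowest value of 0.0369, a median of 0.0443 and a highest value of 0.0462 (percentile 37.4). All its values lay above the highest value of CDC19. A low score was shared with other heavily transcribed genes, whose median percentile was 10.7 for the 100 other genes of highest RNA and 14.6 for 136 ribosomal protein genes, against 14.3 for the 10.

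The entropy of the 10 genes had a median of 6.12 (percentile 97.7), against 5.80 for all genes, and 7 of 10 were above the 90th percentile (10.0% of all genes). FBA1 had a lowest value of 6.10, a median of 6.15 and a highest value of 6.17 (percentile 99.1). CDC19, the lowest of those 7, had a lowest value of 6.01, a median of 6.09 and a highest value of 6.14 (percentile 95.8). TDH1 had a lowest value of 5.91, a median of 5.98 and a highest value of 6.05 (percentile 83.8). The remaining genes below the 90th percentile were those with the most shared sequence: TDH3, with a median of 5.96 (percentile 81.0), and TDH2, with a median of 5.82 (percentile 55.4). A high entropy was less common in the comparison sets, at 33.0% of the 100 other genes of highest RNA and 26.5% of the ribosomal protein genes. It was found in 10 of the 20 other pathway genes, FBP1 and PCK1 of gluconeogenesis among them, whose median RNA values were 0.521 and 2.72 TPM.

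The scale of the entropy has an upper end, and most of the glycolytic genes lay close to it. The largest value in the table was 6.21, next to 6.215, the natural log of 500, which a perfectly even signal over 500 positions would give. A window of about 500 bp was read from this, since the length is not stated in the sources used here. The transcripts of the 10 genes, between 864 and 1693 bp long, all exceed it. The median gap of the 10 genes to 6.215 was 0.0964, against 0.42 for all genes. Over the 15 time points the entropy of the 10 genes moved through a median range of 0.0900, against 0.165 for all genes. TDH2, with the lowest median entropy of the 10 (5.82), moved through 0.246 (percentile 86). The 273 other genes above the 95th percentile of entropy, a set chosen after values had been seen, had a median range of 0.0920.

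**Figure D2:**
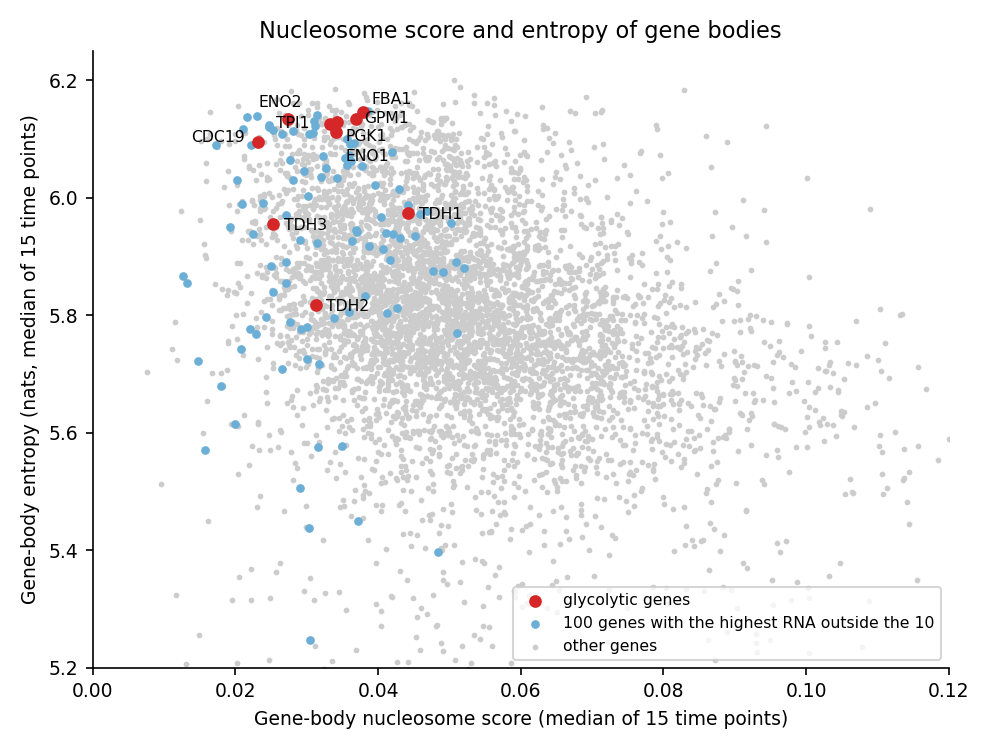
Gene-body entropy (vertical, in natural log units) against gene-body nucleosome score (horizontal), each the median of 15 time points, for the 10 glycolytic genes (red, named), the 100 other genes of highest RNA (blue) and all remaining genes (grey); 186 genes outside the axis limits, none of them glycolytic, are not drawn. The glycolytic genes lie at the upper left, except TDH1, TDH2 and TDH3 with entropies of 5.98, 5.82 and 5.96.

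In the first S phase, the rise of entropy seen across the genome was small in the glycolytic genes. Each gene's entropy was turned into z-scores over its 15 values, and the S phase values (20 and 30 min, or 80 and 90 min) were averaged and set against the mean of G1, G2/M and M as for RNA. The median difference was 0.06 for the 10 genes and 1.58 for all 5590 genes. In entropy units it was 0.00108 for the 10 and 0.0706 for all genes. The S phase mean was above the other mean in 5 of 10 genes, against 95.1% of all genes. Both S phase values exceeded all 4 others in 1 of 10, ENO1, against 47.4% of all genes. The entropy was at its highest of the whole course at 20 or 30 min in ENO1 alone, against 58.4% of all genes. Over both cycles it was highest at 20, 30, 80 or 90 min in 5 of 10, against 72.7% of all genes.

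A small or absent rise was found in genes with and without copies. PGK1 had a mean entropy of 6.11 in S phase and 6.13 in G1, G2/M and M, a z-score difference of -0.88 that was lower than in all but 0.95% of genes. TPI1, with no shared sequence, had a z-score difference of -0.19 (percentile 3.63), GPM1 of 0.25 (percentile 7.48), CDC19 of 0.29 (percentile 8) and FBA1 of 0.63 (percentile 13.4). The 5 genes without copies had a median of 0.25, and 3 of them were above 0. Among those with copies, ENO2 had -0.43, TDH2 -0.23, TDH1 -0.14 and TDH3 0.52, all below percentile 12. ENO1 stood apart with a z-score difference of 1.88 (percentile 67.4), although its rise in entropy units of 0.0287 was below that of most genes (percentile 16.5). ENO1 had entropies of 6.125 and 6.126 at 20 and 30 min and between 6.08 and 6.115 at the 4 compared time points.

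In the second S phase the glycolytic genes were closer to the rest. The median z-score difference was 0.86 for the 10 genes and 0.98 for all genes, and it was above 0 in 9 of 10, against 91.6% of all genes. In entropy units the difference was 0.0223 for the 10 and 0.0434 for all genes. With the S/G2 time point counted as S phase, the z-score medians were further apart, 0.42 for the 10 and 0.87 for all genes. PGK1, the lowest of the 10 in the first cycle, was the highest in the second with a z-score difference of 1.9 (percentile 96.6). GPM1 was the gene below 0, with -0.42 (percentile 3.04). Both S phase values exceeded the 4 others in FBA1, PGK1 and ENO1, or 3 of 10 against 50.2% of all genes. The difference was above 0 in both cycles in 4 of 10 genes, FBA1, TDH3, ENO1 and CDC19, against 88.7% of all genes. The 5 genes without copies had a median of 1.04 in the second cycle, and 4 of them were above 0. The change between the cycles could not be tested without replicates.

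**Figure D3:**
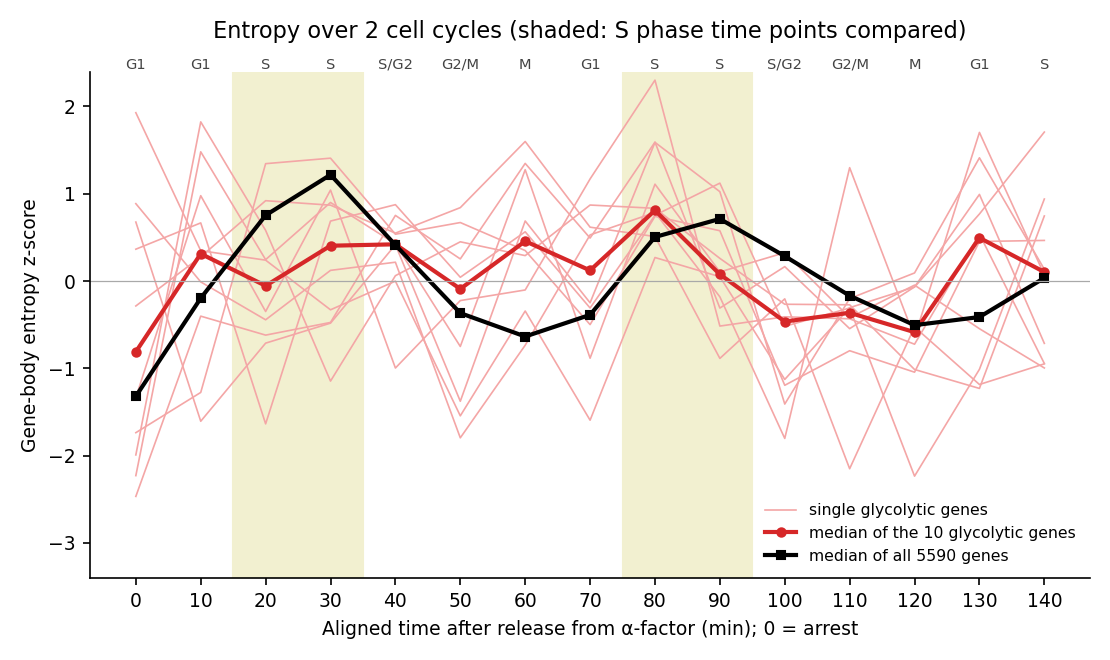
Entropy z-score by aligned time for each of the 10 glycolytic genes (thin red), their median (thick red) and the median of all 5590 genes (black); the shaded bands are the S phase time points compared and phases are written above. The black line peaks at 30 min at 1.22, where the glycolytic median was 0.41, while at 80 min the glycolytic median of 0.81 lay above the 0.50 of all genes.

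The course of the 10 genes departed from that of all genes at some time points of both cycles. At 0 min the median z-score was -0.81 for the 10 and -1.32 for all genes, the lowest of the course in both. The arrest held the lowest entropy in 5 of 10 genes and in 45.0% of all genes. At 30 min the median z-score was 0.41 for the 10 and 1.22 for all genes, and at 60 min, in M phase, 0.46 for the 10 and -0.64 for all genes. In the second cycle it was -0.46 for the 10 and 0.29 for all genes at 100 min, and 0.50 for the 10 and -0.41 for all genes at 130 min. The M phase gap of 60 min was not seen again: at 120 min, the second M phase, it was -0.59 for the 10 and -0.51 for all genes. Without the arrest time point the median first-cycle difference was 0.06 for the 10 genes and 1.38 for all genes, and 5 of 10 were above 0, against 93.4% of all genes. With each of the 6 time points left out in turn, the first-cycle median of the 10 genes lay between -0.13 (without 50 min) and 0.28 (without 20 min), and that of all genes between 1.28 and 1.85. In the second cycle the median of the 10 was 0.46 without 80 min, below the 1.07 of all genes, and 1.32 without 90 min, above the 0.87 of all genes.

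Other sets of heavily transcribed genes also showed a smaller first-cycle rise than all genes, and in the abundant genes of the same pathway it was about as small as in the 10. The median first-cycle z-score difference was 0.90 for the 100 other genes of highest RNA, of which 85.0% were above 0. It was 1.03 for the ribosomal protein genes, of which 91.2% were above 0. It was 1.28 for the 20 other pathway genes, of which 17 were above 0, but these divided by RNA level. The 6 of them above the 90th percentile of RNA, split off after values had been seen, had a median of 0.19, close to the 0.06 of the 10, and 4 of 6 were above 0. ADH1 had -1.76 (percentile 0.13), PFK2 -0.44, PDC1 0.14, PGI1 0.25, PFK1 0.77 and HXK2 1.28. The other 14 had a median of 1.55, and 13 of 14 were above 0. In sets chosen after values had been seen, the median was 0.91 for the 273 other genes above the 95th percentile of entropy and 0.81 for the 44 other genes above the 95th percentile of both entropy and RNA, of which 84.1% were above 0. It was 1.155 for the 146 genes above the 95th percentile of RNA outside the 10 and the ribosomal protein genes. Of these 146 genes, 84.9% were above 0, and their second-cycle median was 0.69. In the second cycle the median z-score difference was 0.86 for the 10 genes, 0.66 for the 100 genes, 0.67 for the ribosomal protein genes, 0.69 for the 44 genes and 0.31 for the 6 abundant pathway genes. In entropy units the order was different, with 0.0223 for the 10 genes, 0.0277 for the 100 genes and 0.0301 for the ribosomal protein genes.

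The DNA next to the glycolytic genes showed the S phase rise. The nearest gene in the table on each side of each of the 10 genes gave 20 neighbours, also chosen after values had been seen. Their median first-cycle z-score difference was 1.59, against 1.58 for all genes. It was above 0 in 19 of 20, against 95.1% of all genes. In 19 of the 20 pairs the neighbour was above its glycolytic gene in the first cycle, and in 14 of the 20 in the second. The first-cycle count follows largely from the low values of the glycolytic genes, since most genes of the genome lay above most of them. The same counts for genes elsewhere were not computed. On both sides of PGK1 (z-score difference -0.88), ADP1 had 1.19 and POL4 1.8. On both sides of TPI1 (-0.19), VMS1 had 2.11 and DET1 2.43. At TDH3 (0.52), HIP1 had 1.88 and PDX1 1.43. The exception was YAL037C-A beside CDC19, at -0.58. The midpoints of the neighbours lay between 826.5 and 3416 bp from those of the glycolytic genes. The neighbours had a median RNA of 44.4 TPM and a median entropy of 5.74.

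Most of the 10 genes also lay close to an annotated replication origin. The median distance from the midpoint of the coding region to the midpoint of the nearest of 352 annotated origins was 2505.5 bp for the 10 and 11159 bp for all genes, and 9 of the 10 were within 10 kb, against 45.7% of all genes. Between midpoints, TPI1 lay 776 bp from ARS418, ENO1 797 bp from ARS735 and TDH2 888 bp from ARS1016, whereas GPM1 lay 10935 bp from ARS1106. The coding regions of ENO1 and TDH2 overlap the annotated origin at one end. Genes at the same distance were compared after values had been seen. The 7 glycolytic genes within 5 kb of an origin had a median first-cycle z-score difference of -0.14, and the 1379 other genes within 5 kb had one of 1.61. In the second cycle the medians were 0.96 for these 7 genes and 0.98 for the others. ENO1, with a first-cycle z-score difference of 1.88, and TPI1, with -0.19, were at nearly the same distance. The part of origin distance in these values was not tested.

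**Figure D4:**
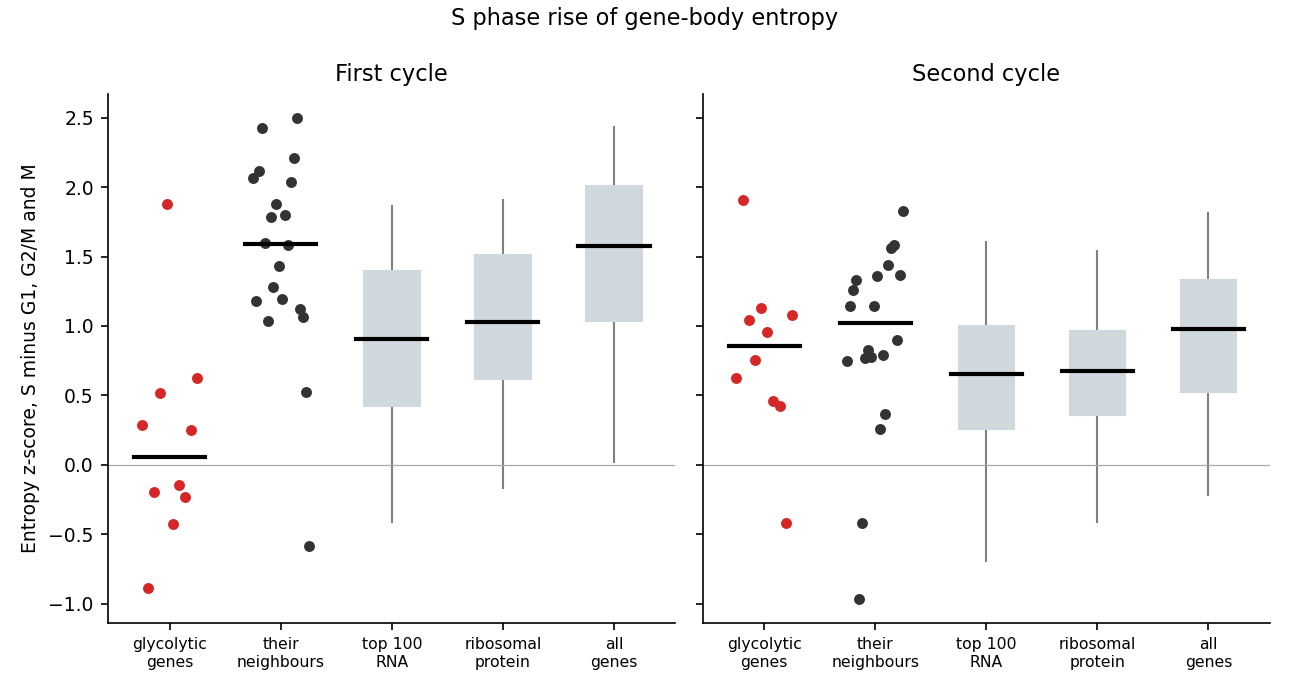
S phase minus G1, G2/M and M mean of the entropy z-score in the first cycle (left) and second cycle (right) for the 10 glycolytic genes (red points), their 20 neighbours (black points), the 100 other genes of highest RNA, the 136 ribosomal protein genes and all genes. Black bars are medians, boxes span the 25th to 75th and lines the 5th to 95th percentiles of genes. In the first cycle the glycolytic median of 0.06 lies below 1.59 for the neighbours and 1.58 for all genes. Single values of the sets overlap in both cycles.

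The S phase difference of the nucleosome score depended on single time points. In the first cycle the S phase mean was above the other mean in 10 of 10 genes, against 41.5% of all genes, 75 of the 100 other genes of highest RNA and 79.4% of the ribosomal protein genes. This count rested on the arrest: without the 0 min time point it was 4 of 10, against 44.3% of all genes. In the second cycle it was 5 of 10, against 33.0% of all genes, and it was 2 of 10 without 80 min (33.5% of all genes) and 3 of 10 without 110 min (31.5% of all genes). The arrest score itself was below that at 10 min in 9 of 10 genes, against 40.4% of all genes. TPI1 had 0.0294 at 0 min and 0.0391 at 10 min, and ENO1 had 0.0280 at 0 min and 0.0354 at 10 min. These were the time points at which RNA of ENO1 was at its highest, and whether one follows the other was not tested.

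At their promoters, 7 of the 10 genes had subnucleosome scores above the 90th percentile (10.0% of all genes). This score is taken from fragments shorter than those of a nucleosome, such as transcription factors leave. Scores above that percentile were also common in other heavily transcribed genes. The share was 40.0% for the 100 other genes of highest RNA and 38.2% for the ribosomal protein genes. TDH3 had a lowest value of 0.0945, a median of 0.104 and a highest value of 0.135, the second highest median of all 5590 genes after ADH1 (0.117). ENO2 had a lowest value of 0.0563, a median of 0.0652 and a highest value of 0.0789 (percentile 99.1). TPI1 had a lowest value of 0.0533, a median of 0.0643 and a highest value of 0.0764 (percentile 99). The genes with least RNA had low scores: ENO1 had a lowest value of 0.0124, a median of 0.0173 and a highest value of 0.0261 (percentile 31.3), and TDH1 a lowest value of 0.00712, a median of 0.00904 and a highest value of 0.0133 (percentile 7.51). The values of TDH1 and TDH3 did not overlap with those of any other of the 10, apart from TDH1 at 0 and 10 min, which reached the lowest values of ENO1.

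**Figure D5:**
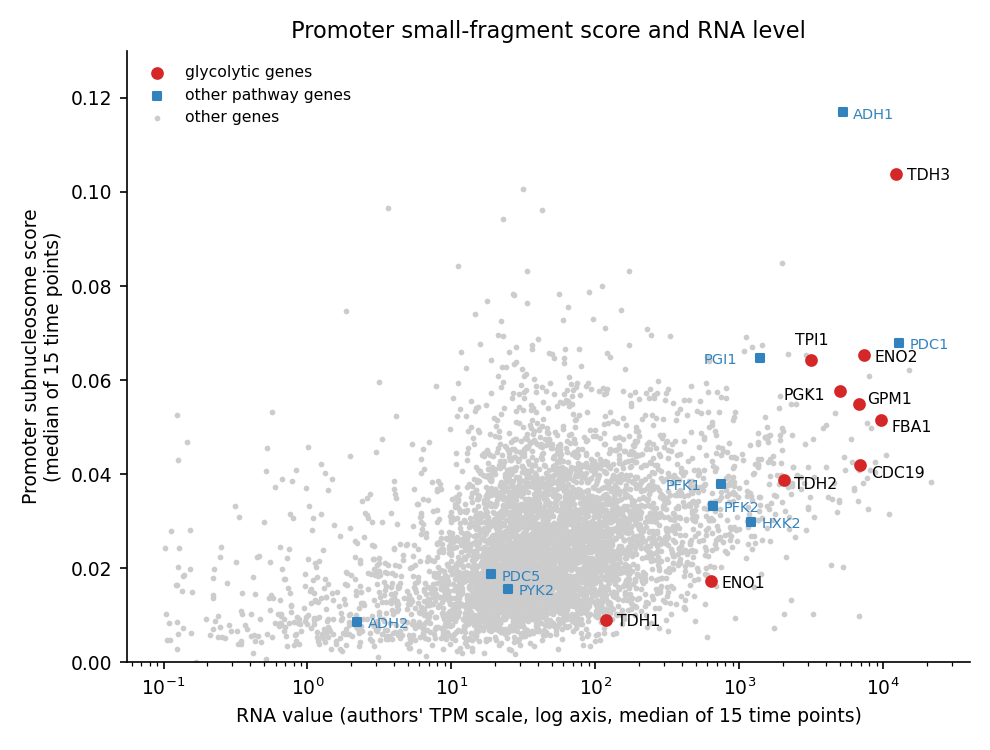
Promoter subnucleosome score against RNA (log axis), each the median of 15 time points, with the 10 glycolytic genes in red. Blue squares are 9 of the 20 other pathway genes, picked for the plot without a stated rule. All remaining genes are grey, the rest of the 20 among them, and 27 genes with a median RNA under 0.1 are not drawn. TDH3 and ADH1 lie highest at 0.104 and 0.117, and ENO1 and TDH1 lie lowest of the red points.

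Over time, the scores of ENO1 and TDH1 were high early and low later, as their RNA was. ENO1 had its highest score of 0.0261 at 0 min and its lowest of 0.0124 at 60 min, and TDH1 had its highest of 0.0133 at 0 min and its lowest of 0.00712 at 130 min. The median score of all promoters also declined, with 0.0263 at 0 min and 0.0191 at 130 min, and its part in the decline of both genes was not tested. TDH3 went the other way, with 0.0993 at 0 min and its highest score of 0.135 at 130 min, while its RNA was 15780 TPM at 0 min and 12913 TPM at 130 min. The S phase mean of the promoter score was above that of G1, G2/M and M in 8 of 10 genes in the first cycle, against 51.1% of all genes, and in 6 of 10 in the second, against 83.2%.

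The promoters themselves are shown for 5 genes that span the scores from TDH3 to TDH1, as the 300 bases before the transcription start given in the table, on the strand of the gene, from the R64 reference. Capitals mark TATAAA, the core of the TATA box, and CTTCC, the core bound by Gcr1 in S. cerevisiae, on either strand. The windows are chrVII:883850-884149 (minus) for TDH3, chrX:454730-455029 (minus) for TDH2, chrX:337897-338196 (plus) for TDH1, chrVII:1000590-1000889 (plus) for ENO1 and chrI:71459-71758 (plus) for CDC19.
TDH3: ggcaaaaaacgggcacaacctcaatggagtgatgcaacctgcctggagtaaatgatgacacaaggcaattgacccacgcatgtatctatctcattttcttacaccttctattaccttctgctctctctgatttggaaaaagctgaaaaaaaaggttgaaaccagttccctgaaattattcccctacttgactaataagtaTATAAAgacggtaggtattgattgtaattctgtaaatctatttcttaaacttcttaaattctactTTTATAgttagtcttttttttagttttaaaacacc
TDH2: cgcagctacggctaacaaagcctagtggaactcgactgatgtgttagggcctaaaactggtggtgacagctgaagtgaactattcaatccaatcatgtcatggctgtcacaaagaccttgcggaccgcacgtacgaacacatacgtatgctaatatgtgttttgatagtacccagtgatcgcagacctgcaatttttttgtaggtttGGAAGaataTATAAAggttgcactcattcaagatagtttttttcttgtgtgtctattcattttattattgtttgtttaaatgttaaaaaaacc
TDH1: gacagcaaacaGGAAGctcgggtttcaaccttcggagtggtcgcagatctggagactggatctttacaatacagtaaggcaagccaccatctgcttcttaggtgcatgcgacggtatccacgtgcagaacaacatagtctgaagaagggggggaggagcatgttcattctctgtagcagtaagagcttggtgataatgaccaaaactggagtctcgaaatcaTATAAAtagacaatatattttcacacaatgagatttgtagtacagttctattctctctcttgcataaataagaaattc
ENO1: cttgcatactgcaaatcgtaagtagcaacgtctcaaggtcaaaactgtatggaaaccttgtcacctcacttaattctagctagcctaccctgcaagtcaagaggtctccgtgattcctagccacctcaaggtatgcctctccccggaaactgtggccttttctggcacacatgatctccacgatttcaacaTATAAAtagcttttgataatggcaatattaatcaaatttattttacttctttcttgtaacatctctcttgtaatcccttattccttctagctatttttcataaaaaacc
CDC19: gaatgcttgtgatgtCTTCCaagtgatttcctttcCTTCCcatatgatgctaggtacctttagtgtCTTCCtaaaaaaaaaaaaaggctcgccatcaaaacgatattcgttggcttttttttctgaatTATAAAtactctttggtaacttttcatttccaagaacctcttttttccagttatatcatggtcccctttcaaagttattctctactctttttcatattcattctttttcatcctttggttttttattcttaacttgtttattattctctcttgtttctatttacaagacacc
The window of TDH1 includes 107 coding bases of YJL052C-A. The window of TDH2 lies within the annotated origin ARS1016 (chrX:454584-455555). The paper infers replication proteins from small fragments at origins, and their part in the promoter score of TDH2 was not tested. TATAAA was found on the strand of the gene in 9 of the 10 glycolytic windows, against 28.9% of all 5590 windows of the same length and 28 of those of the 100 other genes of highest RNA. On either strand it was found in 9 of 10 against 46.5%. GPM1 had none. In TDH2, TDH1 and TDH3 it began 84, 78 and 100 bases before the start, and in CDC19 172 bases before it. CTTCC was found on either strand in 6 of 10 windows, against 46.2% of all windows, with 3 copies in CDC19 and none in TDH3, TPI1, PGK1 and ENO1. In windows of 500 bases it was found in 9 of 10, against 66.4% of all. A Rap1 consensus with 2 free positions, searched on either strand, was found in none of the 10 at either length, against 0.662% of all windows of 300 bases and 1.04% of those of 500 bases. With matches this rare, their absence from 10 windows cannot show whether Rap1 binds these promoters. TDH1 and ENO1, whose promoter scores were low, hold a TATAAA as does TDH3, whose score was high.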

How the data were processed

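MNase-seq and total RNA-seq of 59 libraries were used as 4 tables of 5590 genes, with 1 column per time point. Per the methods of the study and the labels, the authors aligned reads to the R64 (sacCer3) genome with Bowtie 0.12.7, kept uniquely mapped MNase fragments, subsampled them to equal numbers between time points and merged replicates. The values deposited by the authors were treated as a score: nucleosome score, its Shannon entropy, a promoter subnucleosome score and RNA named TPM, whose columns summed to between 949828 and 1041385. Depth per gene is unknown. How the RNA replicates were merged and the window of the promoter score are not given in the sources used here. Post-release labels of Replicate 1 lie 10 min later than aligned times, and the labels of 1 MNase library at 10 min conflict.

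Python 3.11.15 with numpy 2.4.6, pandas 2.3.3, Biopython 1.88 and matplotlib 3.10.9 was used. Genes were named by a rule: the 10 genes, 20 other pathway genes and the 5 with the most similar RNA. These lists, like the comparisons, were chosen with earlier results of these data known. RNA differences used a pseudocount of 1. Start coordinates were raised by 1, after which 5579 of 5587 genes with a RefSeq locus tag matched R64, all 10 among them. Sequences are from the RefSeq R64 assembly, and 1 promoter sequence is not reported here. Of the measures, only the first-cycle S phase difference of entropy was tested on simulated data, which had no upper limit of entropy. Other baselines, S phase time points, scalings, pseudocounts, filters and sets were tried.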

Additional observations from a re-analysis of the deposited data

How the results depend on the processing

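No paired analysis was possible because the tables hold 1 column per time point, with the replicates merged where there are 2, and for the same reason leaving out single replicates was not run. Of the median results, that of the first S phase depended most on the choices made. The z-score difference of the 10 genes, 0.0554 as reported, was 0.159 with the S/G2 time point counted as S phase, -0.639 against M phase alone, 0.169 as a mean over genes and 0.253 without the TDH and ENO genes. The same settings gave 0.00467, -0.0136, 0.00232 and 0.00613 for the 0.00108 in entropy units. With single time points left out, the ranges were -0.135 to 0.28 for the z-score and -0.00373 to 0.0102 for entropy, with 4 to 7 genes above 0. All-gene medians under the same left-out time points were 1.28 to 1.85 and 0.0568 to 0.0824, and 1.64 and 0.0712 against M phase alone. With S/G2 counted as S phase they were 1.42 and 0.0629. In the second cycle, counting S/G2 as S phase gave 0.417 in place of 0.856 and 0.0130 in place of 0.0223. All-gene medians under that setting were 0.871 and 0.0381. Left-out time points gave 0.462 to 1.32 and 0.0123 to 0.0299, with 6 to 10 genes above 0. Counts with time points left out were added after the data had been seen. For entropy, the share of all genes above 0 was computed only for the first cycle without 0 min, where it was 93.4%. The count of genes with a higher nucleosome score in S phase ran from 4 to 10 in the first and from 2 to 7 in the second cycle. Shares of all genes ran from 38.2% to 45.9% in the first and from 29.9% to 39.6% in the second. The RNA difference in the first S phase, -0.0964, was -0.172 after upper quartile scaling, -0.0021 as a mean and 0.0636 against M phase alone. In the second it was -0.0676, with -0.0308 as a mean and -0.207 against M phase alone. The arrest difference of 0.507 was 0.289 without the TDH and ENO genes. RNA at 110 min rests on 1 library. The cause of these shifts was not tested. Genes with copies, a bounded entropy and merged columns limit the precision.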
